A study of Mus musculus with 16 samples.

Results

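Gene expression was compared between metformin-treated and control mammary glands of lactating mice kept on NCD, the study's diet that is not its high fat diet. The comparison rests on the 4 libraries described as Met PN and the 4 described as Control PN, which are 8 of the 16 libraries of the series. All are total RNA from the whole inguinal gland with an age label of postnatal day 16, and the title of the series places them in mid-lactation. The series crossed 2 diets, NCD and HFD (a high fat diet given during lactation), with metformin or control treatment, in 4 groups of 4 libraries. The labels leave NCD and PN unexpanded and give no strain, genotype, dose, route or duration. Nothing in them ties a library to an animal, and the p-values below therefore reflect differences among these RNA samples alone, part of which may be technical.

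Metformin is a glucose-lowering biguanide that enters cells through organic cation transporters and inhibits complex I of the mitochondrial respiratory chain. It is known in other tissues to activate AMPK, the kinase that senses a low energy charge. The secretory epithelium of the lactating gland makes milk protein, lactose and fat, which needs a large supply of ATP, NADPH and citrate from its mitochondria and glycolysis.

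The 4 NCD metformin libraries held 25473962 to 39156617 counts over genes, and the 4 NCD control libraries 28722179 to 31732115. Over these 8 libraries 3 counts, taken as the floor of detection, equal 0.0766 to 0.118 CPM. CPM is a gene's count relative to the total of its library, here scaled by TMM, edgeR's correction for composition. Each library carries the name of its group and a number. The titles carry sample numbers that fall into 2 ranges. NCD metformin 1 and 2 and NCD control 1, 2 and 3 lie in the range from 1 to 10, and NCD metformin 3 and 4 lie with NCD control 4 alone in the range from 14 to 26. The labels do not say what this gap is.

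NCD control 3 stood apart through skeletal muscle genes. The 18 muscle markers summed to between 2.22 and 37.1 CPM in the NCD metformin libraries and to between 3.56 and 5389 CPM in the NCD control libraries, where the highest value without NCD control 3 was 31.2. Acta1, the actin of skeletal muscle, stood at 0.114, 2.64, 0.141 and 0.0469 CPM in NCD metformin 1 to 4, against 3.61, 1.3, 414 and 0.239 CPM in NCD control 1 to 4. The same library was high for Ckm, the muscle creatine kinase, at 448 CPM, and for Ryr1, the calcium release channel of muscle, at 99.7 CPM, where the other 7 libraries held at most 2.74 and 0.969 CPM. In bulk RNA fewer cells of a type and less RNA per cell cannot be told apart. With all libraries 14 of 17 tested muscle markers were called lower with metformin, against 6.03% of all tested genes. Without NCD control 3 this was 1 of 17, against 3.31%, Myh1, a myosin heavy chain, and the log2 fold change of Ryr1 was 0.05. The count also fell to 0 without NCD metformin 2, to 2 without NCD metformin 1, 3 or 4, and to 7, 8 or 9 without NCD control 1, HFD control 2 or HFD control 3, while DESeq2 called 3 and limma voom 1. Muscle genes are not described further.

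**Figure D1:**
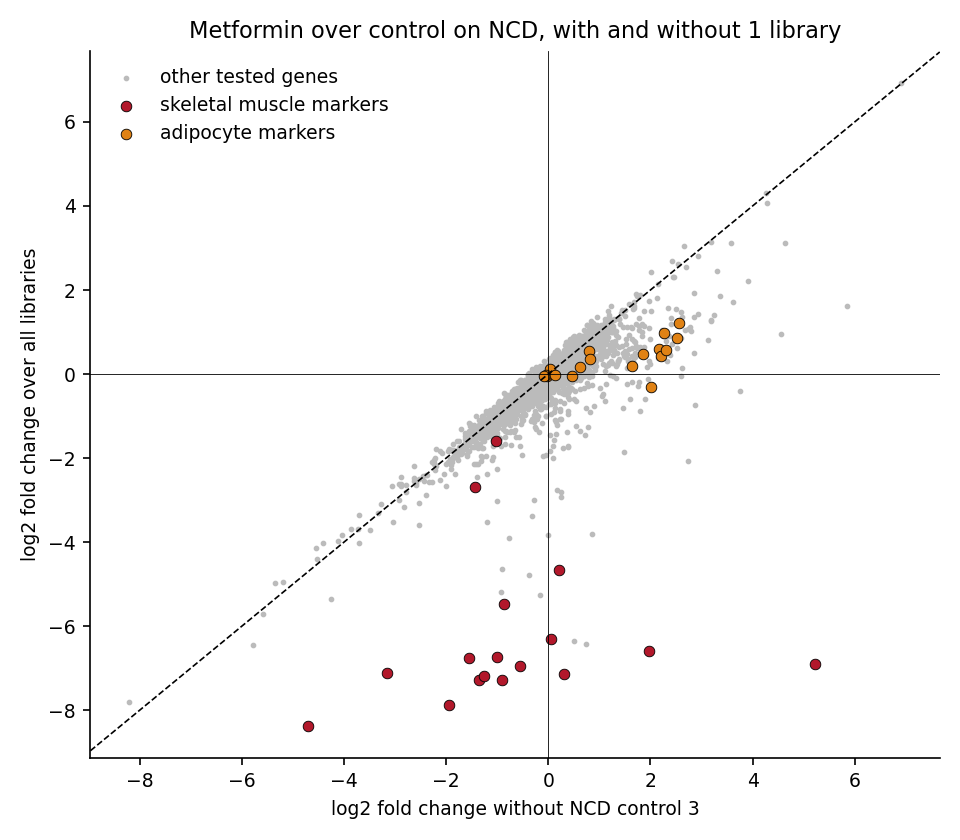
Log2 fold change of metformin over control on NCD for each gene tested both ways, without NCD control 3 on the x axis and over all libraries on the y axis, with the line of equal values dashed. Muscle markers (red) have a median of -6.91 on the y axis and of -1.01 on the x axis, and adipocyte markers (orange) have a median of 0.27 on the y axis and of 1.22 on the x axis.

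All 8 libraries carried the markers of a lactating gland. Csn2, which encodes beta-casein, stood at 144548, 150857, 151012 and 128781 CPM in NCD metformin 1 to 4, against 126319, 135710, 125605 and 157756 CPM in NCD control 1 to 4, and its ranges overlapped (log2 fold change 0.08, adjusted p = 0.638, edgeR). Milk protein transcripts took 71.5, 71.4, 71.9 and 71.3% of counts in the metformin libraries, against 71.7, 73.1, 70.6 and 73.1% in the controls. The means were 71.5 ± 0.255% with metformin and 72.1 ± 1.19% without (SD, n = 4 each; exact permutation p = 0.343, two-sided). A difference in this share was not detectable with these libraries.

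A broad set of genes differed between the metformin and control glands on NCD. Of 12506 genes tested, edgeR's quasi-likelihood test called 1255 at an adjusted p under 0.05 (10%), 501 higher (4.01%) and 754 lower (6.03%), and 3488 had an unadjusted p under 0.05. Without NCD control 3 it called 788 of 12636 genes (6.24%), 370 higher (2.93%) and 418 lower (3.31%). Both fits called 665 genes in the same direction, 272 higher and 393 lower. The CPM ranges of the groups did not overlap for 2320 genes (18.6%), 1092 of them higher with metformin (8.73%) and 1228 lower (9.82%), and 1090 of the 1255 called genes were among these. Among the lists examined, genes called higher included members of the mitochondrial genome (9 of 13), the citric acid cycle (11 of 24) and ketone body metabolism (4 of 7). Genes called lower included p53 targets (19 of 34) and genes of STAT3 and involution (7 of 26). Counts of calls in any list below are to be read against the shares over all genes, 4.01% higher and 6.03% lower. Without NCD control 3 these shares are 2.93% and 3.31%.

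The number of calls depended on single libraries. Without NCD metformin 2 it was 180, 79 higher and 101 lower. Without NCD control 1 it was 384 (116 higher, 268 lower) and without NCD metformin 3 it was 511 (221 higher, 290 lower). Without NCD control 2 it was 564 (181 and 383) and without NCD control 4 it was 925 (349 and 576). Without NCD metformin 1 it was 964 (336 and 628) and without NCD metformin 4 it was 1147 (428 and 719). These refits tested 12613 to 12692 genes. Calls in a list without 1 of these libraries are to be read against these totals. The split between directions depended on the scaling. Scaled by library size alone 248 genes were higher and 742 lower, so that 25.1% of calls were higher against 39.9%, with a median over all genes of -0.067. In counts rebuilt from TPM 313 were higher and 300 lower, and with a trend on coding length and GC content removed 635 were higher and 428 lower. The 2 fits tested 11112 and 12506 genes. Calls in a list under these alternatives are to be read against these totals.

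Directions held within both ranges of title numbers more often than calls did. All 501 genes called higher were higher within titles 1 to 10 (median log2 fold change 0.53) and within titles 14 to 26 (0.47). Of the 754 called lower, 754 were lower within titles 1 to 10 (median -0.79) and 737 of 750 tested within titles 14 to 26 (-0.70). These libraries had entered the calls, so the agreement in sign is a description. Fitted alone, titles 1 to 10 gave 1 call, Prss53, and titles 14 to 26 gave 1 call, Prol1.

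The clearest rise was that of Prss53, which encodes a secreted serine protease of the trypsin family. Prss53 (ENSMUSG00000044139.12, chr7:127885841-127890970 on GRCm38) stood at 12.3, 13.5, 13.7 and 13.8 CPM in the NCD metformin libraries, against 2.68, 2.96, 2.95 and 3.4 CPM in the NCD control libraries. The groups were far apart, and values within each group were close to each other. Its log2 fold change was 2.15 ± 0.20 (SE, adjusted p = 7.94e-05, edgeR), and 2.14 without NCD control 3.

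Pycard encodes ASC, the adaptor that links inflammasome sensors to caspase-1, and lies near Prss53 at chr7:127989708-127993867. It stood at 13.6, 18.5, 10.3 and 18.3 CPM with metformin, against 4.59, 7.42, 5.21 and 4.92 CPM in controls. The log2 fold change was 1.46 ± 0.23 (SE, adjusted p = 0.00554, edgeR), with no overlap. Of 25 annotated genes within 250 kb of Prss53, itself included, 21 were tested and 4 were called, all higher. Besides Prss53 and Pycard these were Hsd3b7, a bile acid synthesis enzyme (log2 fold change 0.62), and Bckdk, the kinase that inhibits branched-chain ketoacid dehydrogenase (0.39). Over all genes 4.01% were called higher. The window was set around Prss53, so its own call was fixed by this choice. The other tested neighbours were not called and had both signs, from -1.07 (Trim72) to 0.31 (Kat8). Trim72 was low, at means of 0.761 CPM with metformin and 1.59 CPM in controls, with an SE of 0.61. The next lowest values were -0.38 for Fbxl19 and Zfp646.

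Ptgr1, an NADPH-dependent reductase of prostaglandins and leukotriene B4, stood at 22.5, 24.8, 16.2 and 21.2 CPM with metformin, against 9.73, 7.97, 7.52 and 9.55 CPM in controls (log2 fold change 1.28 ± 0.17 SE, adjusted p = 0.00196, edgeR). Every metformin library was above every control. Bcat2, the mitochondrial aminotransferase that starts the breakdown of branched-chain amino acids, stood at 41, 53.5, 52.5 and 44.3 CPM with metformin, against 17.9, 19, 31 and 22.2 CPM in controls (1.09 ± 0.18, adjusted p = 0.00728, edgeR). Endog, an endonuclease of the mitochondrial intermembrane space, stood at 13.8, 17.9, 11.9 and 14.7 CPM with metformin, against 6, 7.84, 7.71 and 5.73 CPM in controls. Its log2 fold change was 1.10 ± 0.17 (SE, adjusted p = 0.00554, edgeR), again without overlap.

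Rnase1, a secreted ribonuclease, stood at 1.37, 3.11, 1.3 and 1.48 CPM with metformin, against 0.231, 0.13, 0.317 and 0.328 CPM in controls (log2 fold change 2.82 ± 0.48 SE, adjusted p = 0.00705, edgeR). NCD metformin 2 held the highest value, and the lowest metformin library was still above every control. Pcolce2, an enhancer of procollagen processing, stood at 4.96, 11.2, 4.18 and 5.82 CPM with metformin, against 2.45, 2.47, 1.84 and 1.19 CPM in controls (1.72 ± 0.29, adjusted p = 0.00743, edgeR). Angptl2, a secreted angiopoietin-like protein, stood at 8.23, 24.7, 12.5 and 8.61 CPM with metformin, against 4.73, 4.36, 5.75 and 3.61 CPM in controls (1.55 ± 0.32, adjusted p = 0.013, edgeR). NCD metformin 2 was the highest library for both, and neither gene overlapped. Ly6a, a membrane protein of a family that can share reads, stood at 20.7, 32.6, 22.2 and 23.7 CPM with metformin, against 9.64, 9.5, 11.9 and 9.25 CPM in controls (1.30 ± 0.15, adjusted p = 0.000648, edgeR).

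Another 5 of the 15 largest rises are given without values by library. They were Efhd1, a calcium-binding protein of mitochondria (log2 fold change 1.30), Glrx, a glutaredoxin (1.18), Exoc3l2, a relative of an exocyst subunit (1.12), Bcl2l14, a member of the BCL2 family (1.12), and Upb1, an enzyme of pyrimidine breakdown (1.06). Among the genes with the lowest p-values was also Prmt7, a protein arginine methyltransferase, at 18.2, 20.8, 20.7 and 16.4 CPM with metformin, against 10.9, 11.4, 11.4 and 9.76 CPM in controls (0.81 ± 0.11, adjusted p = 0.00229, edgeR).

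**Figure D2:**
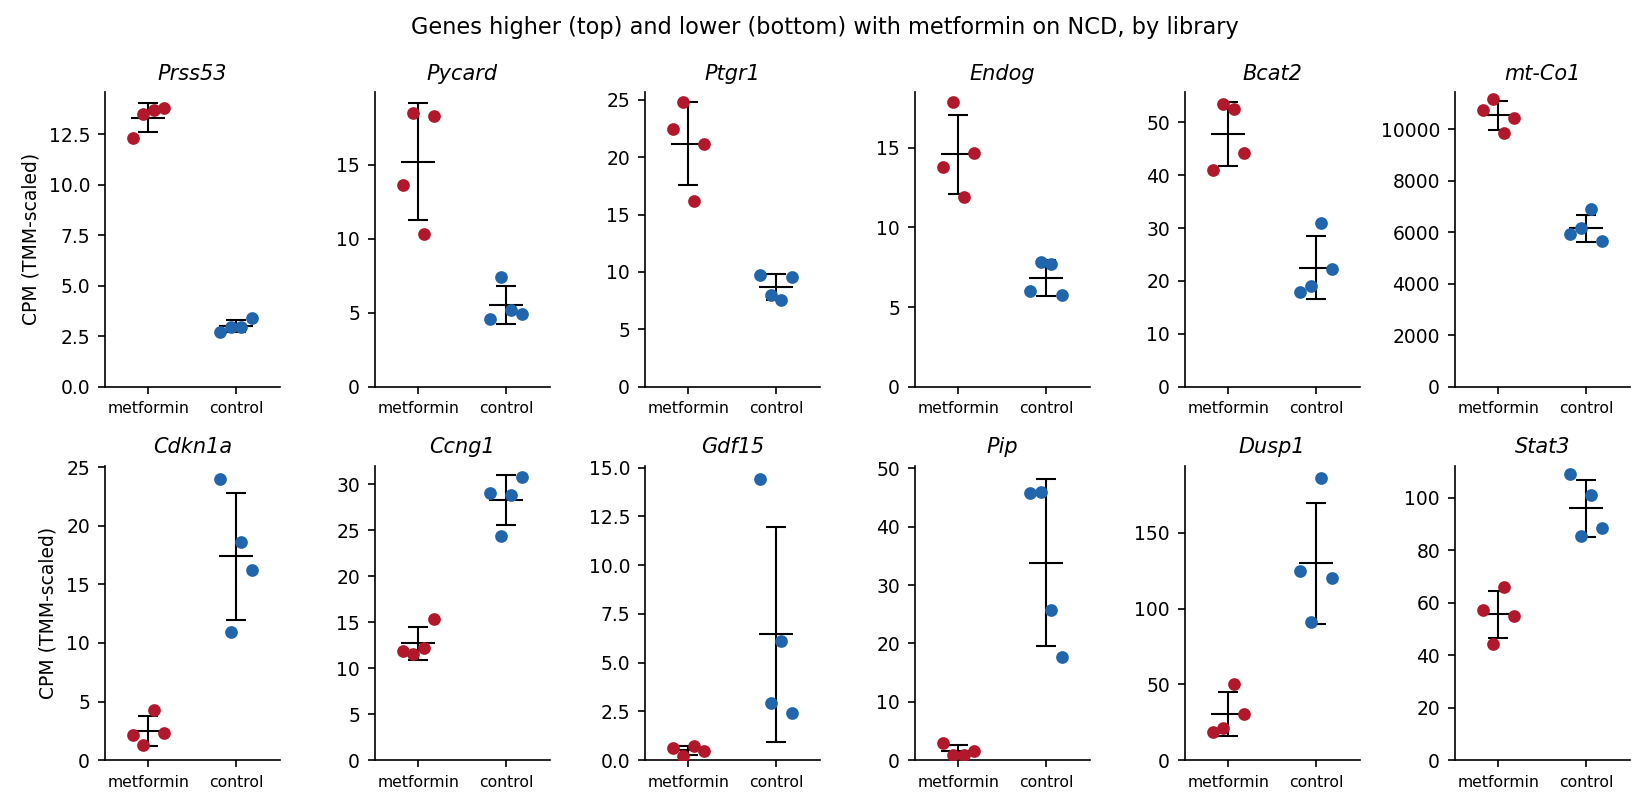
Level of 12 genes in CPM (y axis, linear, from 0) in each of the 4 NCD metformin libraries (red) and the 4 NCD control libraries (blue), with lines and bars for mean ± SD. The groups do not overlap for any of the 12, which the rule of choice required for all but Stat3. The metformin libraries are above the controls in the top row and below them in the bottom row.

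The largest falls were those of Pip, Gstp2, Gdf15 and Prol1. Pip, the prolactin-induced protein, stood at 2.9, 0.936, 0.914 and 1.62 CPM in the NCD metformin libraries, against 45.8, 45.9, 25.7 and 17.7 CPM in the NCD control libraries (log2 fold change -4.41 ± 0.86 SE, adjusted p = 0.0109, edgeR). Prol1, a secreted proline-rich protein, stood at 28.7, 3.24, 17.4 and 5.47 CPM with metformin, against 124, 57.9, 130 and 228 CPM in controls (-3.31 ± 0.63, adjusted p = 0.01, edgeR). The groups did not overlap for either gene, although values within each group differed several fold. Gdf15, a stress-induced cytokine of the TGF-beta family, stood at 0.61, 0.201, 0.703 and 0.493 CPM with metformin, against 14.4, 2.93, 6.13 and 2.42 CPM in controls (-3.69 ± 0.64, adjusted p = 0.00743, edgeR). Gstp2, a glutathione transferase that can share reads with Gstp1, stood at 0.572, 0.802, 0.773 and 0.258 CPM with metformin, against 23.8, 4.65, 7.05 and 1.7 CPM in controls (-3.98 ± 0.82, adjusted p = 0.0132, edgeR). NCD control 1 was the highest library for both, and NCD control 4 the lowest control.

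Nrip1, a corepressor of nuclear receptors, stood at 7.51, 2.27, 2.49 and 5.63 CPM with metformin, against 27.6, 21.2, 40 and 16.7 CPM in controls (log2 fold change -2.56 ± 0.44 SE, adjusted p = 0.00743, edgeR). Cpeb4, which binds polyadenylation elements of mRNAs, stood at 7.05, 2.44, 1.44 and 4.15 CPM with metformin, against 17.2, 13.3, 30.3 and 11.7 CPM in controls (-2.27 ± 0.45, adjusted p = 0.0112, edgeR). NCD control 3 was the highest library for both, and without it the log2 fold changes were -2.28 and -1.91. Map3k20, a stress-activated kinase also known as ZAK, stood at 4.16, 2.98, 3.97 and 4.43 CPM with metformin, against 10.9, 8.2, 7.65 and 10.6 CPM in controls (-1.26 ± 0.16, adjusted p = 0.00133, edgeR). The small GTPase Arl4d (-1.87) and the ubiquitin ligase Rnf144b (-1.85) completed the 15 largest falls together with the genes of the next paragraphs. Among the 6 called falls of highest level were Ivns1abp, a kelch protein (-0.91), Nucb2, nucleobindin 2 (-0.53, adjusted p = 0.0725 without NCD control 3, edgeR), and Cp, the copper-carrying ferroxidase ceruloplasmin (-0.51).

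p53 is a transcription factor that responds to DNA damage and other stress by inducing genes of cell cycle arrest, apoptosis and repair, among them Mdm2, which encodes its own inhibitor. Of 34 tested p53 target genes, 19 were called lower with metformin and 0 higher, against 6.03% and 4.01% of all genes. The median log2 fold change was -0.85, against -0.003 over all genes, and 30 of the 34 were negative. Without NCD control 3 the count was 13 and the median -0.75, and leaving out any other single library gave 13 to 19. DESeq2 called 20 and limma voom 18. The median was -0.98 within titles 1 to 10 and -0.51 within titles 14 to 26.

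Cdkn1a, the cyclin-dependent kinase inhibitor p21, stood at 2.13, 1.27, 4.32 and 2.3 CPM in the NCD metformin libraries, against 24, 10.9, 18.6 and 16.2 CPM in the NCD control libraries (log2 fold change -2.80 ± 0.35 SE, adjusted p = 0.00097, edgeR). Ccng1, cyclin G1, stood at 11.9, 11.5, 12.2 and 15.4 CPM with metformin, against 29.1, 24.4, 28.8 and 30.8 CPM in controls (-1.15 ± 0.12, adjusted p = 0.000156, edgeR). Every metformin library lay below every control library for both, and Ccng1 varied little within its groups. Gtse1, a protein that restrains p53 in cycling cells, stood at 1.94, 1.64, 2.39 and 1.5 CPM with metformin, against 10.1, 4.68, 4.83 and 6.74 CPM in controls (-1.82 ± 0.26, adjusted p = 0.00356, edgeR). Psrc1, a microtubule-associated protein of the spindle, stood at 0.381, 0.568, 1.48 and 0.446 CPM with metformin, against 4.33, 3.22, 3.71 and 5.49 CPM in controls (-2.55 ± 0.37, adjusted p = 0.00363, edgeR). NCD metformin 3 was the highest metformin library for Cdkn1a, Gtse1 and Psrc1, and still below the controls.

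Cdkn1a (ENSMUSG00000023067.14, chr17:29090976-29100727 on GRCm38) is shown with its upstream promoter because p53 is known to act on this gene directly. The window from RefSeq (GRCm38.p6, chr17:29090729-29091028, plus strand) runs from 250 bases before to 50 bases after the start of the transcript. Capitals mark the only match to CATGNNNNNNCATG, the paired cores of a p53 response element, which reads the same on both strands and begins 48 bases before the start.
Cdkn1a: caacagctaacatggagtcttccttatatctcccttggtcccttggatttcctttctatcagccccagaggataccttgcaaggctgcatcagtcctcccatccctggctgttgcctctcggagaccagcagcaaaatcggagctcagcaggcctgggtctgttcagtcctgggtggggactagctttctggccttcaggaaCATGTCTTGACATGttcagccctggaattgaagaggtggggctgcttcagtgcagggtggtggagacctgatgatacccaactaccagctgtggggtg
Another RefSeq window of Cdkn1a, at chr17:29093519-29093818, had no match. Of the 9667 tested genes with such a window 33 held this motif (0.341%), and of the 27 p53 targets with a window 1 did (3.7%). The match overlapped none of the other motifs searched.

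Other p53 targets act in cell death and stress signalling. Trp53inp1, a p53-induced nuclear protein, stood at 3.7, 1.24, 1.65 and 3.31 CPM with metformin, against 18.9, 12.9, 40.4 and 11.2 CPM in controls (log2 fold change -3.07 ± 0.54 SE, -2.53 without NCD control 3, adjusted p = 0.00755, edgeR). Eda2r, the ectodysplasin A2 receptor of the TNF receptor family, stood at 0.419, 0.401, 0.316 and 0.493 CPM with metformin, against 2.11, 1.82, 2.32 and 2.48 CPM in controls (-2.40 ± 0.29, adjusted p = 0.000717, edgeR). Bax, which permeabilises the outer mitochondrial membrane in apoptosis, stood at 19.3, 22.6, 25.7 and 22.9 CPM with metformin, against 43.2, 40.4, 37.9 and 36.7 CPM in controls (-0.81 ± 0.16, adjusted p = 0.0109, edgeR). The groups of all these genes were separate. Some further called targets were chosen for mention after their values were seen. Mdm2 averaged 9.96 ± 1.49 CPM with metformin and 17.1 ± 1.46 CPM in controls (SD, n = 4; log2 fold change -0.78, adjusted p = 0.00743, edgeR). The others were the death receptor Fas (-0.76), the RNA-binding protein Zmat3 (-1.26), the DNA polymerase Polk (-1.23), the epoxide hydrolase Ephx1 (-1.22) and Bbc3, which encodes PUMA (-1.20, adjusted p = 0.105 without NCD control 3, edgeR). The gene of p53 itself, Trp53, averaged 4.26 ± 0.392 CPM with metformin and 5.51 ± 0.822 CPM in controls and was not called (-0.37, adjusted p = 0.103, edgeR).

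**Figure D3:**
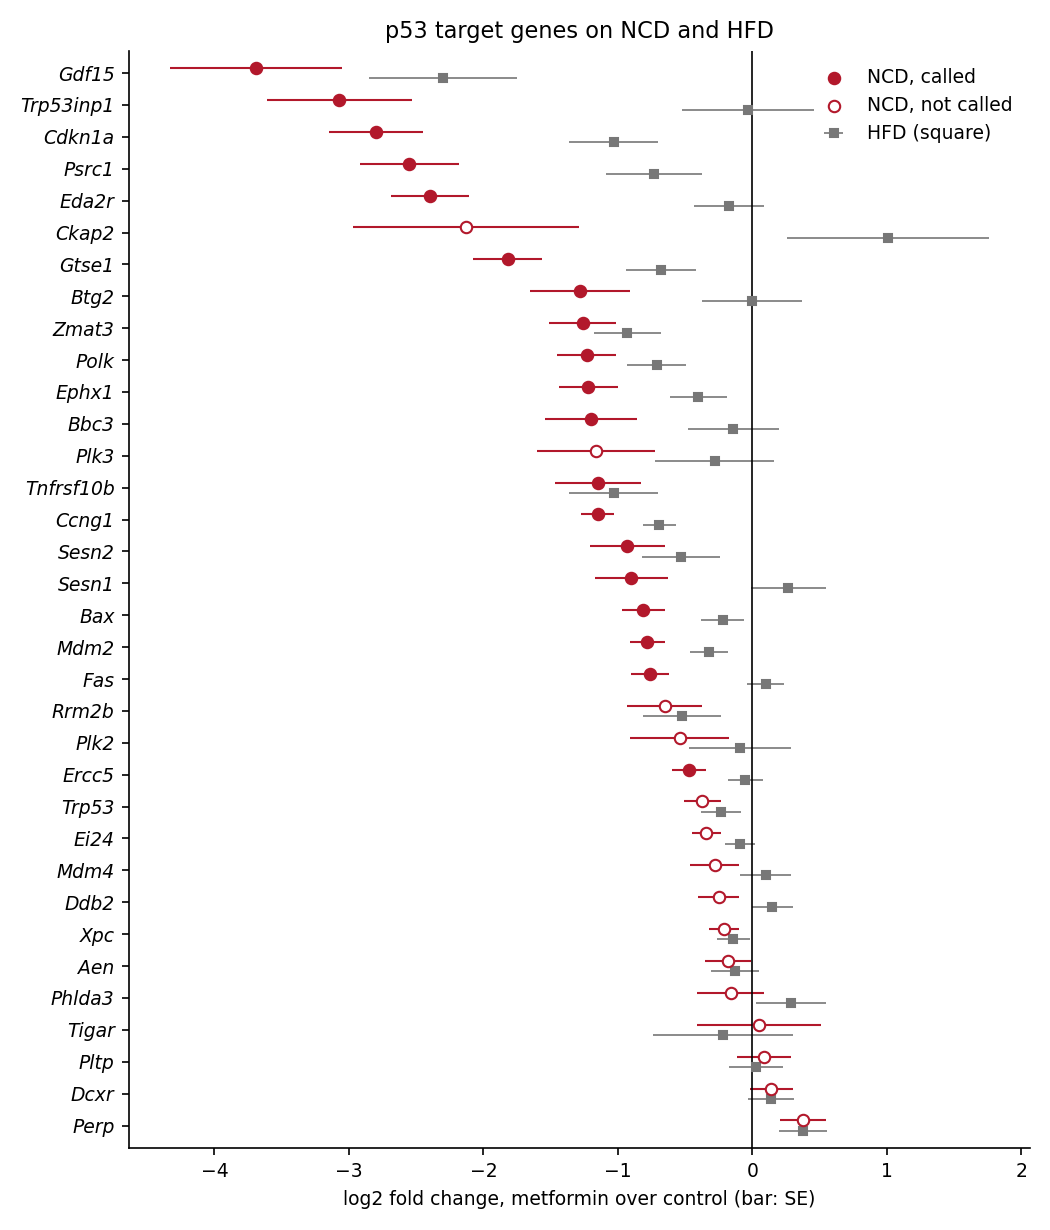
Log2 fold change of metformin over control (x axis, bars are SE) for the 34 tested p53 targets, on NCD (red, filled where called) and on HFD (grey squares). On NCD the 19 called genes lie to the left of 0, from Gdf15 at -3.69 to Ercc5 at -0.47, and on HFD most squares lie nearer to 0.

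The wider list of BCL2 family and apoptosis genes moved in both directions. Of 18 tested, 4 were lower and 2 higher, against 6.03% and 4.01% of all genes. Without NCD control 3 it was 2 lower and 1 higher, against 3.31% and 2.93%. Apaf1, the scaffold of the apoptosome, stood at 1.3, 0.969, 1.09 and 1.57 CPM with metformin, against 3.18, 2.99, 3.9 and 3.25 CPM in controls (log2 fold change -1.42 ± 0.23 SE, adjusted p = 0.00614, edgeR). The higher genes were Diablo, a mitochondrial protein that releases caspases from inhibition (0.63), and Bad, which antagonises BCL2 proteins (0.43). No gene was called higher without NCD metformin 2 or NCD control 1, 2 or 4, and 1 was without NCD metformin 1, 3 or 4, and 2 were called lower without NCD control 1 or NCD metformin 2, 3 or 4.

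Immediate early genes respond within minutes to growth factors, cyclic AMP or tissue handling, and many encode feedback inhibitors. Of 31 tested, 5 were called lower and 0 higher, against 6.03% and 4.01% of all genes, with a median log2 fold change of -0.73 and 3 positive values. Without NCD control 3 it was 1 of 31, near the 3.31% of all genes called lower then. Dusp1, a phosphatase that inactivates MAP kinases, stood at 18.9, 21.5, 50.4 and 30.7 CPM with metformin, against 125, 91.3, 186 and 120 CPM in controls (-2.10 ± 0.38, adjusted p = 0.00806, edgeR). Nr4a2, an orphan nuclear receptor, stood at 0.534, 0.368, 0.949 and 0.633 CPM with metformin, against 1.79, 1.89, 8.63 and 6.18 CPM in controls (-2.89 ± 0.71, adjusted p = 0.0234, edgeR), and it was not called without NCD control 3 (adjusted p = 0.0525, edgeR). The groups did not overlap for either, and NCD metformin 3 was the highest metformin library for both. The best known members of the list, named after their values were seen, were not called. Fos averaged 188 ± 179 CPM with metformin and 304 ± 152 CPM in controls, and Jun 62.9 ± 57 CPM with metformin and 132 ± 52.8 CPM in controls (SD, n = 4). The count was 1 without NCD metformin 2, 2 without NCD control 1 or NCD metformin 1 or 4, and 10 without NCD metformin 3.

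Cyclic AMP signalling genes outside that list were among the 15 largest falls. Sik1, a salt-inducible kinase induced by cyclic AMP, stood at 32.1, 20.8, 50.6 and 26.8 CPM with metformin, against 127, 72.4, 211 and 92.4 CPM in controls (log2 fold change -1.95 ± 0.46 SE, adjusted p = 0.0204, edgeR). Pde4b, a cyclic AMP phosphodiesterase, stood at 6.29, 6.08, 5.8 and 5.72 CPM with metformin, against 37.8, 14.1, 38.7 and 8.3 CPM in controls (-2.05 ± 0.46, adjusted p = 0.0182, edgeR). The metformin libraries were nearly equal for Pde4b, while NCD control 4 was close to them, and the log2 fold change was -0.53 within titles 14 to 26 and -2.29 within titles 1 to 10.

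The promoter of Dusp1 is shown because its window holds the full cyclic AMP response element. The RefSeq window (GRCm38.p6, chr17:26508423-26508722, minus strand) is printed 5′ to 3′ along the gene. Capitals mark the single match to TGACGTCA, which reads the same on both strands, begins 143 bases before the start and overlapped no other motif searched.
Dusp1: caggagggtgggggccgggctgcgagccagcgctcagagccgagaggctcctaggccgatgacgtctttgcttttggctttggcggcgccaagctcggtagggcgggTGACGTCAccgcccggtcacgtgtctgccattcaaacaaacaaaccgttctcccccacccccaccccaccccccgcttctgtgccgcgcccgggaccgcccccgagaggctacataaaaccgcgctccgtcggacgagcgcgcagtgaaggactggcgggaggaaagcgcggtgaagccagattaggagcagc
This element was present in 339 of 9667 windows of tested genes (3.51%), in 4 of 24 windows of immediate early genes (16.7%) and in 24 of 598 windows of genes called lower (4.01%).

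Kruppel-like factors and glucocorticoid receptor targets, both linked to hormone and stress responses, were lower where they were called. Over all genes 6.03% were called lower, and 3.31% without NCD control 3. Of 12 Kruppel-like factors tested, Klf11 (log2 fold change -1.29) and Klf6 (-1.30) were called lower, and Klf6 was not without NCD control 3 (adjusted p = 0.0971, edgeR). The count was 0 without NCD metformin 2 and 1 without NCD control 1 or 4 or NCD metformin 4. Of 15 glucocorticoid receptor targets 4 were called lower and none of the 15 was positive, with a median of -0.82. These 4 were Dusp1, Lcn2, Angptl4 and the receptor gene Nr3c1 itself (-0.92). Lcn2, an iron-sequestering lipocalin of the acute phase, stood at 359, 154, 462 and 256 CPM with metformin, against 657, 611, 603 and 739 CPM in controls (-1.08 ± 0.29, adjusted p = 0.0293, edgeR). The ranges did not overlap, and NCD metformin 2 was lowest. The count of 4 was 3 without NCD control 3, 1 without NCD control 1 or NCD metformin 2 and 2 without NCD control 2 or 4 or NCD metformin 3. Among 19 circadian clock genes 0 were called, 4 had an unadjusted p under 0.05, and DESeq2 called 2 and limma voom 1.

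Genes of the mitochondrial genome encode core subunits of the respiratory chain and ATP synthase. They took 3.67, 3.56, 3.24 and 3.59% of counts in the NCD metformin libraries, against 2.39, 2.27, 2.71 and 2.18% in the NCD control libraries. Every metformin library was above every control, at 3.51 ± 0.19% with metformin and 2.39 ± 0.231% in controls (SD, n = 4 each; exact permutation p = 0.0286, two-sided, the smallest these 70 splits can give). Of the 13 genes 9 were called higher, all 13 were positive and the median log2 fold change was 0.49. Without NCD control 3 the count was 9 and the median 0.55, and it was 6 to 9 without any other single library. Copies of mitochondrial genes in the nuclear genome can share reads with them.

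mt-Co1, a catalytic subunit of cytochrome c oxidase (complex IV), stood at 10775, 11179, 9849 and 10430 CPM with metformin, against 5932, 6155, 6894 and 5647 CPM in controls (log2 fold change 0.78 ± 0.09 SE, adjusted p = 0.000589, edgeR). mt-Atp8, a small subunit of ATP synthase, stood at 933, 906, 886 and 1020 CPM with metformin, against 600, 552, 645 and 592 CPM in controls (0.65 ± 0.09, adjusted p = 0.00292, edgeR). Values within each group were close and the groups were far apart for both. The log2 fold changes of mt-Co3, mt-Co2, mt-Atp6, mt-Cytb and mt-Nd4 were 0.70, 0.67, 0.58, 0.49 and 0.41.

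Of 36 genes of complexes II to V 13 were called higher and all 36 were positive, with a median of 0.40. Leaving out NCD metformin 2 gave 3 calls, NCD control 1 gave 4, NCD control 2 gave 7 and NCD control 3 gave 15. Atp5b, the catalytic subunit of ATP synthase, stood at 538, 615, 564 and 651 CPM with metformin, against 359, 415, 456 and 423 CPM in controls (log2 fold change 0.52 ± 0.10 SE, adjusted p = 0.012, edgeR). Cyc1, cytochrome c1 of complex III, stood at 104, 113, 96.3 and 110 CPM with metformin, against 66.5, 72.6, 78.9 and 72.8 CPM in controls (0.54 ± 0.11, adjusted p = 0.0113, edgeR). The groups were separate for both genes. The succinate dehydrogenase subunits Sdha (0.49) and Sdhd (0.47) were called too.

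For complex I, the known site of metformin action, 8 of 36 nuclear subunits were called higher and 35 were positive, with a median of 0.37 and the same count without NCD control 3. Examples were Ndufs7 (log2 fold change 0.43), Ndufb9 (0.56) and Ndufb8 (0.54). This count was 0 without NCD control 1 or 4 or NCD metformin 2, and 1 without NCD control 2. Higher calls over all genes fell in these refits too. It was 2 without NCD metformin 4, 4 without NCD metformin 1 or 3 and 5 without HFD metformin 2 or 4. Mitochondrial ribosomal proteins, which translate the mitochondrial mRNAs, gave 15 of 76 called higher and 71 positive (median 0.34), with Mrpl47 at 0.81 and Mrpl30 at 0.69. That count was 5 without NCD metformin 2, 6 without NCD control 1, 7 without NCD control 2, 8 without NCD control 4 or NCD metformin 3, 9 without NCD metformin 1 and 11 without NCD control 3.

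Pyruvate dehydrogenase and the citric acid cycle, which feed the respiratory chain and supply citrate for milk fat, gave 11 of 24 called higher and 22 positive, with a median of 0.31. Idh2, the NADPH-producing isocitrate dehydrogenase of mitochondria, stood at 27.1, 32.9, 28.7 and 27.3 CPM with metformin, against 16.9, 15.8, 20.3 and 16.9 CPM in controls (log2 fold change 0.73 ± 0.14 SE, adjusted p = 0.00908, edgeR). The groups did not overlap. Citrate synthase (Cs, 0.51) and the pyruvate dehydrogenase component Pdhx (0.53) were also called. Leaving out NCD metformin 2 or NCD control 1 gave 2 calls, NCD control 2 gave 5, NCD metformin 3 gave 6, NCD control 4 gave 7 and NCD control 3 gave 10.

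Ketone body genes were called higher in 4 of 7 cases, with a median of 0.71. Bdh1, which interconverts the 2 main ketone bodies, stood at 65.5, 58.4, 62.8 and 62.2 CPM with metformin, against 34.6, 37.8, 35.7 and 43 CPM in controls (log2 fold change 0.72 ± 0.11 SE, adjusted p = 0.00488, edgeR). Oxct1, the transferase that commits ketone bodies to oxidation, stood at 244, 316, 245 and 323 CPM with metformin, against 159, 174, 165 and 181 CPM in controls (0.73 ± 0.12, adjusted p = 0.00614, edgeR). The groups were separate for both. Acat1 (0.71), the thiolase that forms acetyl-CoA from them, and Aacs (0.71), which activates acetoacetate for lipid synthesis, were also called, the second not without NCD control 3 (adjusted p = 0.0832, edgeR). The count was 3 without NCD control 3 and 2 without NCD metformin 2, and 1 gene was called lower without NCD control 4.

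**Figure D4:**
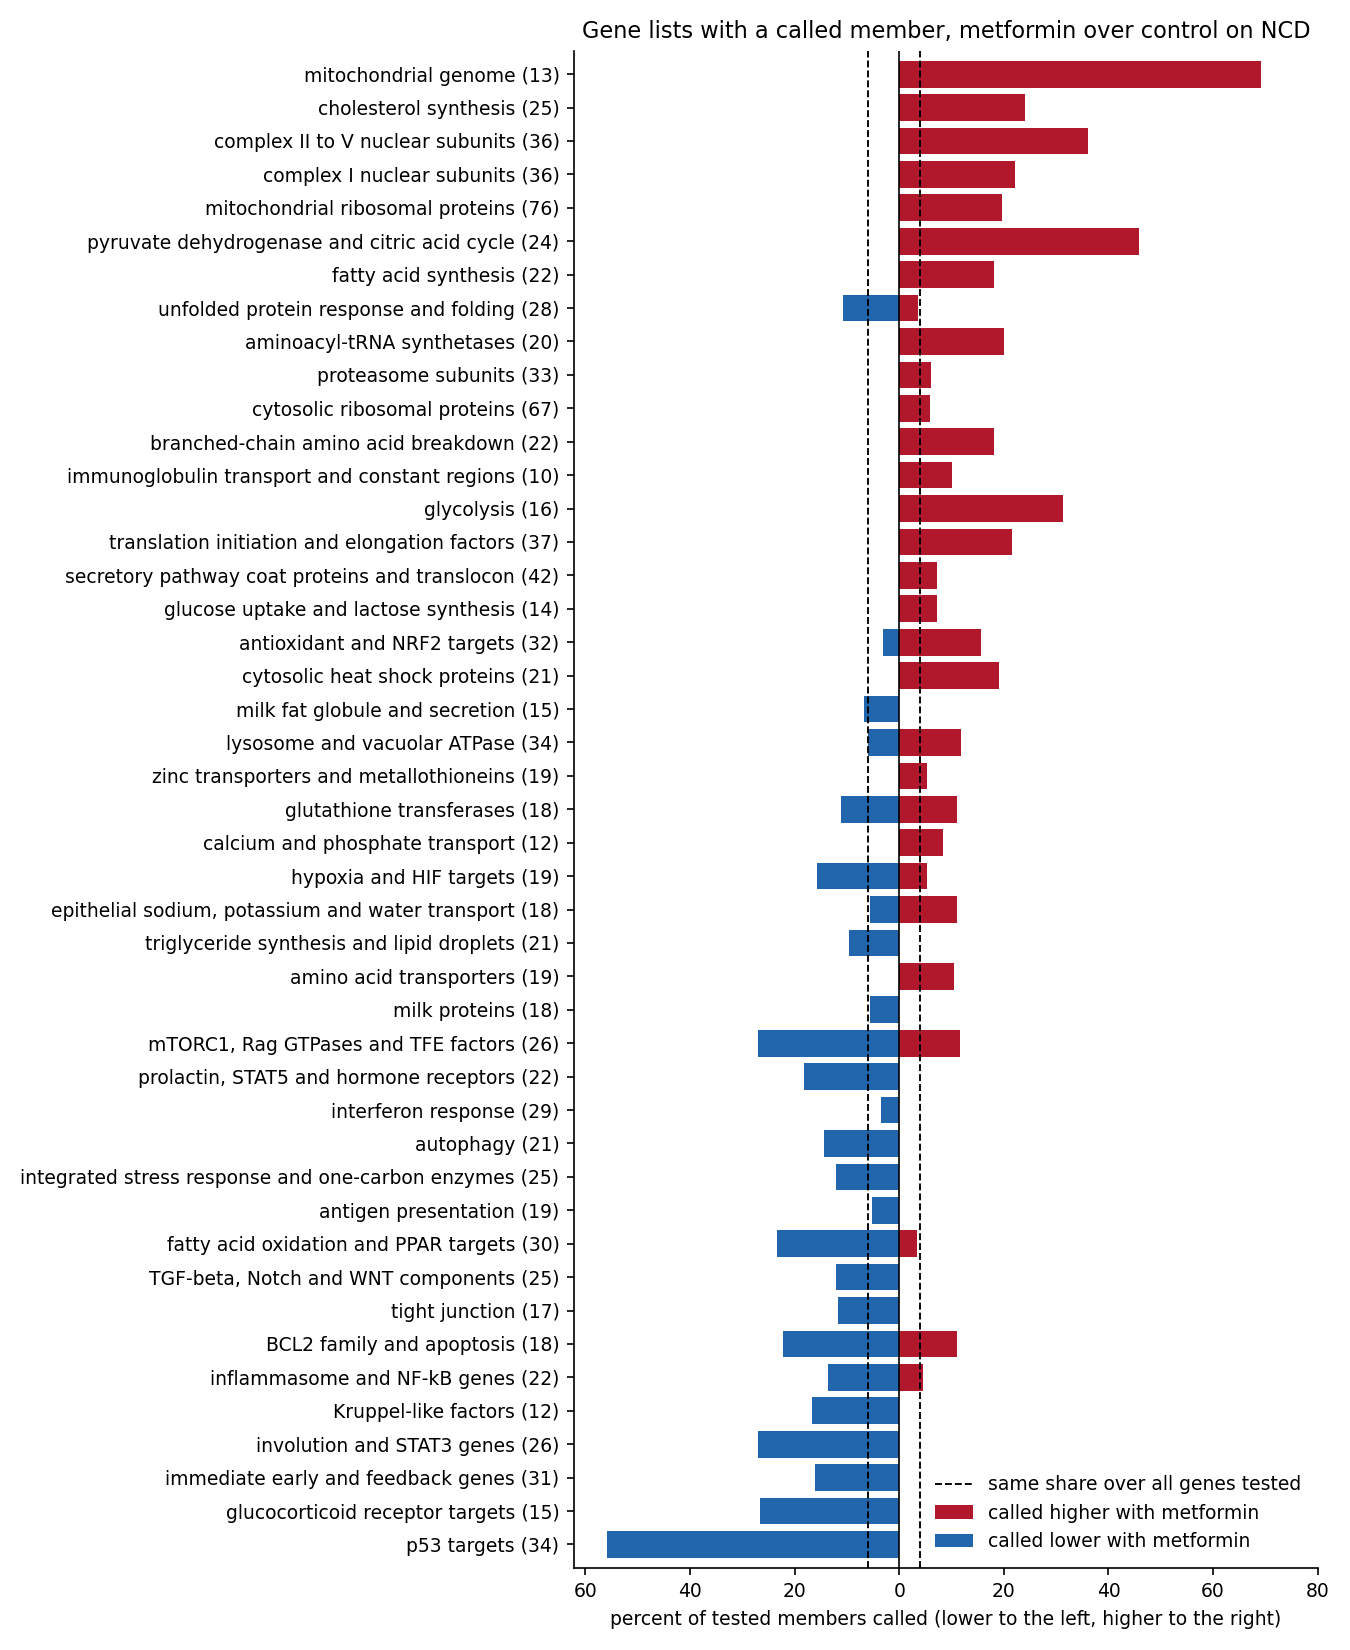
Percent of the tested members (number in brackets) of each pathway list called higher (red, to the right) and lower (blue, to the left) with metformin on NCD, for the lists with at least 10 tested members and at least 1 call, ordered by median log2 fold change. Dashed lines mark the same shares over all genes, 4.01% and 6.03%, and p53 targets and the mitochondrial genome show the longest bars to each side.

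Cholesterol synthesis genes, which SREBP2 induces when sterols are low, gave 6 of 25 called higher and 0 lower, with a median of 0.43. Msmo1, a sterol demethylase, stood at 9.07, 8.36, 10.8 and 9.41 CPM with metformin, against 3.38, 3.38, 4.51 and 7.37 CPM in controls (log2 fold change 1.01 ± 0.21 SE, adjusted p = 0.014, edgeR). Lss, lanosterol synthase, stood at 15, 13, 18.8 and 9.62 CPM with metformin, against 4.96, 5.92, 7.78 and 9.67 CPM in controls (0.99 ± 0.21, adjusted p = 0.014, edgeR). NCD control 4 was the highest control for both and lay within the metformin range for Lss. Sqle, squalene epoxidase, stood at 73.7, 65.6, 72.7 and 55.5 CPM with metformin, against 34.3, 43.5, 46 and 54.6 CPM in controls (0.58 ± 0.13, adjusted p = 0.0192, edgeR), and Fdps, farnesyl diphosphate synthase, had a log2 fold change of 0.67. The median of the list was 0.63 within titles 1 to 10 and -0.01 within titles 14 to 26. Leaving out NCD control 3 gave 5 calls, NCD control 1 or NCD metformin 2 gave 2, NCD control 2 or NCD metformin 3 gave 3 and NCD control 4 gave 13.

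The promoters of Msmo1 and Lss are shown because CCAAT boxes, bound by NF-Y, are known to accompany SREBP sites. Both windows are from RefSeq (GRCm38.p6), Msmo1 at chr8:64733529-64733828 on the minus strand and Lss at chr10:76531355-76531654 on the plus strand. Capitals mark CCAAT or, for a box on the other strand, ATTGG. The boxes of Msmo1 begin 160, 96 and 55 bases before the start and that of Lss 62 bases before it, and none overlapped another motif searched.
Msmo1: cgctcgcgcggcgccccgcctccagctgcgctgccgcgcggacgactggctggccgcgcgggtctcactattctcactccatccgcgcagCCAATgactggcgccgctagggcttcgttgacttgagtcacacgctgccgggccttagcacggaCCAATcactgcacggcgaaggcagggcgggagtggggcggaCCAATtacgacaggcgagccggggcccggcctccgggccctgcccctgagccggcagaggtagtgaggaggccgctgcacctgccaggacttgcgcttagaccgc
Lss: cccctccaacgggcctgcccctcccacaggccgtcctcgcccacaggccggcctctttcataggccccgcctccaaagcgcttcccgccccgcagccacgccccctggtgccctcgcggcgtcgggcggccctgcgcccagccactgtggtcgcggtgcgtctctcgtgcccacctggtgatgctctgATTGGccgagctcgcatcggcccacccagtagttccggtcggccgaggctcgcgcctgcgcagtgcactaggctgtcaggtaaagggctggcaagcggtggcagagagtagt
A CCAAT box on either strand was present in 16 of 18 windows of cholesterol synthesis genes (88.9%), in 4116 of 9667 windows of all tested genes (42.6%) and in 173 of 395 windows of genes called higher (43.8%). The sterol response element TCACNCCAC, searched on both strands, was present in 1 of the 18 and in 130 of the 9667 (1.34%).

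Fatty acid synthesis genes gave 4 of 22 called higher, with and without NCD control 3, and a median of 0.31. The median was 0.48 within titles 1 to 10 and 0.11 within titles 14 to 26. Acly, ATP citrate lyase, which makes cytosolic acetyl-CoA, stood at 1464, 1274, 1163 and 1059 CPM with metformin, against 684, 864, 718 and 964 CPM in controls (log2 fold change 0.62 ± 0.15 SE, adjusted p = 0.0211, edgeR). The citrate carrier Slc25a1 (0.74) and the elongase Elovl1 (0.53) were also called. Fasn, fatty acid synthase, was named after its values were seen and was not called (5765 ± 1695 CPM with metformin and 3731 ± 1172 CPM in controls, SD, n = 4). The count was 1 without NCD control 1 and 0 without NCD metformin 2. Of 21 genes of triglyceride synthesis, the acyl-CoA synthetase Acsl4 (-1.49) and the acyltransferase Agpat3 (-0.73) were called lower. This was 1 without NCD control 1 or NCD metformin 2 and 0 without NCD metformin 3, and 2 genes were called higher without NCD control 3.

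Genes of fatty acid oxidation and PPAR targets, which respond to free fatty acids, gave calls of lower genes. Of 30 tested, 7 were called lower and 1 higher, against 6.03% and 4.01% of all genes. The list had a median of -0.25. The median was -0.29 within titles 1 to 10 and 0.15 within titles 14 to 26, where its direction turned. Ucp3, a mitochondrial carrier induced by fatty acids, stood at 64.1, 47, 49.2 and 59.5 CPM with metformin, against 231, 143, 150 and 57.3 CPM in controls (log2 fold change -1.40 ± 0.28 SE, adjusted p = 0.0112, edgeR). Cpt1a, which admits fatty acids to mitochondria, stood at 2.74, 2.07, 2.14 and 3.28 CPM with metformin, against 7.22, 5.82, 4.73 and 2.98 CPM in controls (-1.01 ± 0.23, adjusted p = 0.0193, edgeR). Angptl4, an inhibitor of lipoprotein lipase, stood at 10.6, 9.69, 7.38 and 8.77 CPM with metformin, against 100, 34.7, 48.8 and 8.3 CPM in controls (-2.40 ± 0.60, adjusted p = 0.0249, edgeR). NCD control 4 lay within the metformin range for all 3 genes, and their log2 fold changes within titles 14 to 26 were -0.07, -0.12 and -0.03. The carnitine carrier Slc25a20 (-0.78) and the dehydrogenase Acadl (-0.64) did not overlap between groups. The count of genes called lower was 1 without NCD control 1, 2 without NCD metformin 2 or 3 and 4 without NCD control 3. The single call of a higher gene was lost without any 1 of the NCD libraries other than NCD control 3, where 2 were called, and without 6 of the HFD libraries.

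Glycolysis genes gave 5 of 16 called higher and 0 lower, with and without NCD control 3. Eno1, an enolase with several pseudogenes, stood at 270, 324, 301 and 292 CPM with metformin, against 172, 200, 200 and 205 CPM in controls (log2 fold change 0.61 ± 0.11 SE, adjusted p = 0.00743, edgeR). The phosphofructokinase Pfkl (0.67), the mutase Pgam1 (0.64) and Gapdh (0.38) were also called. The count was 1 without NCD metformin 2, 2 without NCD control 1 or 2 or NCD metformin 3 and 3 without NCD control 4. Of 22 genes of branched-chain amino acid breakdown 4 were called higher, Bcat2 (given above), Mccc2 (0.53), Pccb (0.36) and Bckdk (0.39). Bckdk encodes the kinase that inhibits this breakdown. The count was 1 without NCD control 1 or NCD metformin 2, 2 without NCD control 2 and 6 without NCD control 3.

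Of 37 translation initiation and elongation factors 8 were called higher and 0 lower (median 0.19). Eif2s1, the eIF2 subunit that stress kinases phosphorylate, stood at 14.4, 16.1, 17.1 and 17.4 CPM with metformin, against 9.64, 10.5, 11.1 and 12.2 CPM in controls (log2 fold change 0.58 ± 0.11 SE, adjusted p = 0.0104, edgeR). That count was 2 without NCD metformin 2 or NCD control 1 or 2, 3 without NCD control 3 or NCD metformin 3 and 5 without NCD control 4 or NCD metformin 1. Of 20 aminoacyl-tRNA synthetases 4 were called higher (Tars, Farsa, Wars and Yars), 3 without NCD control 3, 2 without NCD control 1 or NCD metformin 3 and 1 without NCD metformin 2. Tars, the threonyl-tRNA synthetase, stood at 49.1, 38.1, 40.5 and 45.2 CPM with metformin, against 24.5, 31.2, 30.8 and 30 CPM in controls (0.57 ± 0.12, adjusted p = 0.014, edgeR). All 67 cytosolic ribosomal protein genes were positive (median 0.24), but 4 were called, and 0 without NCD control 1, 2 or 3 or NCD metformin 2 or 4 and 1 without NCD control 4 or NCD metformin 1 (25 had an unadjusted p under 0.05 with all libraries, and DESeq2 called 5 and limma voom 6).

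Of 21 cytosolic heat shock genes 4 were called higher, also without NCD control 3, with 1 called without NCD control 1 or 2 or NCD metformin 2 or 3 and 2 without NCD metformin 4. Fkbp4, a cochaperone of steroid receptors, stood at 170, 207, 170 and 175 CPM with metformin, against 116, 129, 111 and 126 CPM in controls (log2 fold change 0.58 ± 0.11 SE, adjusted p = 0.0104, edgeR). Of 28 genes of the unfolded protein response 1 was higher, near the 4.01% of all genes, and 3 were lower, against 6.03%. Neither direction had a call without NCD control 1 or NCD metformin 2 or 3. No gene was called higher without NCD control 2 or 4 either, and 2 were without NCD control 3. The higher one was Manf, a factor released from the endoplasmic reticulum under stress, at 36.3, 30, 51.1 and 37.7 CPM with metformin, against 15.2, 17.2, 29.9 and 21.4 CPM in controls (0.89 ± 0.24, adjusted p = 0.0306, edgeR). Ero1l, an oxidase of disulfide bonds (-0.72), and Sel1l, of protein degradation (-0.65), were lower. Of 25 genes of the integrated stress response, which ATF4 drives, 3 were lower (Gdf15, Cebpb at -1.10 and Sesn2 at -0.93) and 0 higher, with 1 called without NCD control 1, NCD control 3 or NCD metformin 2.

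AMPK is the kinase most often linked to metformin, and mTORC1 is a growth kinase that it inhibits. None of the 10 tested genes of AMPK subunits and upstream kinases was called by edgeR, with log2 fold changes from -0.41 to 0.31. Of these 1 had an unadjusted p under 0.05, and DESeq2 and limma voom called 0. mRNA levels do not measure the kinase activity. In the list of mTORC1, Rag GTPases and TFE factors 3 of 26 genes were higher and 7 lower, but 0 and 1 without NCD control 3. Fnip1, a folliculin partner that binds AMPK, stood at 4.27, 4.31, 1.97 and 5.07 CPM with metformin, against 10.1, 12.4, 17.7 and 8.8 CPM in controls (log2 fold change -1.64 ± 0.33 SE, adjusted p = 0.0126, edgeR). Rragd, a Rag GTPase, stood at 4.73, 7.52, 5.09 and 8.63 CPM with metformin, against 3.12, 2.6, 2.79 and 1.79 CPM in controls (1.34 ± 0.36, adjusted p = 0.0313, edgeR, and 0.0531 without NCD control 3). The lower count was also 1 without NCD control 2 or NCD metformin 1, 2 or 3, 2 without NCD control 1 or HFD control 3, 3 without NCD control 4 and 4 without HFD control 1, HFD control 2 or HFD metformin 2. With the trend on coding length and GC content removed it was 3, and in counts rebuilt from TPM it was 1. The higher count was 0 without NCD control 1 or NCD metformin 2 and 1 without NCD control 2 or 4.

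Lysosome genes gave 4 of 34 higher and 2 lower, and 1 and 2 without NCD control 3. All but the first of these counts are near the shares over all genes (6.03% lower, and 2.93% higher and 3.31% lower without that library). Lipa, lysosomal acid lipase, stood at 87.8, 117, 91.3 and 103 CPM with metformin, against 237, 211, 162 and 161 CPM in controls (log2 fold change -0.95 ± 0.23 SE, adjusted p = 0.021, edgeR). Ctsb, the protease cathepsin B, stood at 325, 296, 375 and 281 CPM with metformin, against 538, 429, 475 and 426 CPM in controls (-0.55 ± 0.12, adjusted p = 0.0159, edgeR). Both fell without overlap, while Lamp1, a membrane protein of the lysosome, rose (0.43). The higher count was 0 without NCD metformin 2, 1 without NCD control 1, 2 or 4 or NCD metformin 3 and 2 without NCD metformin 1, and the lower count was 0 without NCD metformin 2 and 1 without NCD control 1 or NCD metformin 3. Of 21 autophagy genes Atg14 (-0.56), Ulk1 (-0.58) and Optn (-0.53) were called lower, and 1 gene without NCD control 1 or 3 or NCD metformin 1, 2 or 3.

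Transporters of metformin and of thiamine overlap, since organic cation transporters carry both. Of 6 tested, 1 was called lower and 0 higher. This was Slc19a2, a thiamine transporter, at 1.83, 1.44, 1.23 and 1.31 CPM with metformin, against 5.34, 2.7, 3.75 and 3.07 CPM in controls (log2 fold change -1.36 ± 0.28 SE, adjusted p = 0.0126, edgeR). The groups were separate, and the call held without each library in turn.

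STAT3 drives the acute phase programme of the gland and the cell death of involution after weaning. Of 26 genes on this list 7 were called lower and 0 higher, with a median of -0.46, and the count was 6 without NCD control 3 and 3 without NCD metformin 2. Stat3 itself stood at 57.3, 44.1, 65.8 and 54.8 CPM with metformin, against 109, 85.2, 101 and 88.6 CPM in controls (log2 fold change -0.79 ± 0.17 SE, adjusted p = 0.0146, edgeR). Cd14, a coreceptor for lipopolysaccharide, stood at 14.6, 18.9, 20.8 and 16.7 CPM with metformin, against 62.4, 32.2, 68.8 and 31.3 CPM in controls (-1.45 ± 0.30, adjusted p = 0.0134, edgeR). Chil1, a secreted chitinase-like protein, stood at 1.45, 0.969, 2.49 and 1.38 CPM with metformin, against 6.61, 5.2, 5.05 and 3.97 CPM in controls (-1.73 ± 0.29, adjusted p = 0.00705, edgeR). Every metformin library was below every control for these 3 genes, as it was for Lifr, the receptor of leukaemia inhibitory factor, which activates STAT3 (-0.72).

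In the list of inflammasome and NF-kB genes Pycard was higher, and Relb (-0.99), the inhibitor Nfkbia (-0.63) and Casp4 (-0.51) were lower, of 22 tested. The lower count was 1 without NCD control 2 or 3 or NCD metformin 3 and 0 without NCD control 1 or NCD metformin 2. Interferon response genes gave 1 of 29 called lower, Irf9 (-0.34), and antigen presentation genes 1 of 19, B2m (-0.73). Both counts are near or below the 6.03% of all genes called lower. Neither gene was called without NCD control 1, NCD metformin 2 or NCD metformin 3. Irf9 was not called without NCD control 2 and B2m not without NCD control 3, and 2 interferon response genes were called lower without HFD control 1 or 4. Ighg2c, an immunoglobulin constant region that shares reads with its relatives, was called higher (2.62, adjusted p = 0.0364, edgeR, and 0.0714 without NCD control 3), and it was the only call among 10 immunoglobulin genes. It was not called without NCD control 1, 2 or 4 or NCD metformin 2 or 3.

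Antioxidant genes gave 5 of 32 higher and 1 lower, against 4.01% and 6.03% of all genes. Gpx1, a selenium-dependent glutathione peroxidase, stood at 175, 195, 180 and 181 CPM with metformin, against 117, 135, 138 and 135 CPM in controls (log2 fold change 0.48 ± 0.11 SE, adjusted p = 0.018, edgeR). The lower gene was Gclm, a subunit of the first enzyme of glutathione synthesis (-0.34). Leaving out NCD metformin 2 gave 1 higher call, NCD control 1 or 2 or NCD metformin 1 or 3 gave 3 and NCD control 3 gave 4, and Gclm was not called without NCD control 1 or 4 or any 1 of the metformin libraries. Of 18 glutathione transferases Gstt1 (0.80) and Gsta4 (0.74) were higher and Gstp2 (given above) and Gsta3 lower. Gsta3 stood at 16.8, 4.68, 10.8 and 8.96 CPM with metformin, against 34.4, 38.4, 28.8 and 42.2 CPM in controls (-1.80 ± 0.42, adjusted p = 0.0192, edgeR), without overlap. The higher count was 0 without NCD metformin 2 and 1 without NCD control 1, 2 or 4, NCD metformin 1, 3 or 4, HFD control 1 or 2 or HFD metformin 4, and the lower count was 1 without NCD metformin 2. These genes belong to families whose members can share reads.

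Of 18 milk protein genes 6 had an unadjusted p under 0.05 and the groups did not overlap for 4, and DESeq2 and limma voom called 3 each. Over the 12506 genes tested, 3488 had such a p and the groups did not overlap for 18.6%. DESeq2 called 1793 of all genes and limma voom 2137. The counts of the list are near these shares. The log2 fold changes of the 17 not called by edgeR ran from -1.93 to 1.41. By edgeR 1 was called lower, near the 6.03% of all genes. This was Glycam1, which encodes a mucin-like protein of milk, and it was called also without NCD control 3. It stood at 2030, 1195, 1492 and 1224 CPM with metformin, against 2527, 3127, 2405 and 2849 CPM in controls (log2 fold change -0.88 ± 0.22 SE, adjusted p = 0.0239, edgeR), without overlap, and it was not called without NCD control 1 or 2 or NCD metformin 2 or 3. Of 15 genes of milk fat globule secretion 1 was called lower, Stx3 (-0.52), again near 6.03%. It was not called without any 1 of the NCD libraries other than NCD metformin 4, nor without HFD control 2 or HFD metformin 3 or 4. Of 14 genes of glucose uptake and lactose synthesis 1 was called higher, and 2 were without NCD control 3 or NCD metformin 1, and Lalba, the alpha-lactalbumin subunit of lactose synthase, was not called (0.31, adjusted p = 0.158, edgeR). Of 22 genes of prolactin, STAT5 and hormone receptors 4 were lower (Stat5b at -0.71, Jak2 at -0.61, Erbb3 at -0.62 and Nr3c1), and 0 were without NCD control 1 or 3 or NCD metformin 2 or 3, 1 without NCD control 2 and 2 without NCD control 4. It was also 0 in counts rebuilt from TPM and with the trend on coding length and GC content removed.

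Of 18 genes of epithelial sodium, potassium and water transport 2 were called higher and 1 lower, and 0 and 1 without NCD control 3, against 4.01% and 6.03% of all genes and 2.93% and 3.31% without that library. No gene was called higher without NCD control 1 or 2 or NCD metformin 2 either, and 1 was without NCD control 4, NCD metformin 1 or 3, HFD control 1 or 3 or HFD metformin 2. No gene was called lower without NCD control 1 or 2 or NCD metformin 1, 2 or 3, and 2 were without NCD metformin 4 or HFD control 1 or 4. Aqp3, a channel for water and glycerol, stood at 5.45, 8.19, 3.55 and 5.82 CPM with metformin, against 37.3, 21.2, 16.9 and 4.62 CPM in controls (log2 fold change -1.80 ± 0.46 SE, adjusted p = 0.027, edgeR). NCD control 4 lay within the metformin range, and the value was 0.04 within titles 14 to 26. Kcnk5, a potassium channel, stood at 54.7, 198, 48.8 and 46.1 CPM with metformin, against 23, 34.9, 25.9 and 37.1 CPM in controls (1.52 ± 0.41, adjusted p = 0.0305, edgeR, and 0.0633 without NCD control 3), with NCD metformin 2 far above the rest. Among 19 amino acid transporters Slc1a4 (1.11) and Slc38a10 (0.44) were higher, neither was without NCD control 1 or NCD metformin 2, and 1 was without NCD metformin 3. Of 17 tight junction genes Cldn3 (-0.55) and Ocln (-0.46) were lower, and neither was without NCD control 1 or 3 or NCD metformin 1 or 2, and 1 was without NCD control 2 or 4 or NCD metformin 3 or 4.

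Marker genes of other cell types were compared because the gland was sampled whole. Macrophage markers summed to between 126 and 157 CPM in the NCD metformin libraries and to between 178 and 243 CPM in the NCD control libraries, without overlap. Of 15 tested 2 were called lower, Cd14 and the protease Ctss (-0.42), and 1 without any 1 of the NCD libraries other than NCD metformin 4. Fibroblast markers summed to between 239 and 364 CPM with metformin and to between 361 and 402 CPM in controls, with 1 of 9 called lower, Pdgfra (-1.09), and 0 without NCD control 1, 2, 3 or 4 or NCD metformin 2, 3 or 4. The part of these cells in the results above was not tested.

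Adipocyte markers depended on NCD control 3. They summed to between 1902 and 2596 CPM with metformin and to between 1694 and 3142 CPM in controls, where the highest value without NCD control 3 was 1762. Over all libraries 0 of 18 tested were called by edgeR (median 0.27, 1 at an unadjusted p under 0.05, 0 by DESeq2 and 2 by limma voom). Without NCD control 3 edgeR called 5 higher and the median was 1.22. The log2 fold change of Cfd, the secreted protease adipsin, was 1.21 with that library and 2.56 without it (adjusted p = 0.237 and 0.016, edgeR).

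Epithelial and other markers gave few calls. Luminal markers summed to between 248907 and 259024 CPM with metformin and to between 238756 and 258156 CPM in controls, with 1 of 12 called, Cldn3 (lower), which was not called without NCD control 1 or 3 or NCD metformin 1, 2 or 4, and 2 called lower without HFD metformin 1. Krt18, a luminal keratin, stood at 57.2, 69.2, 71.8 and 79 CPM with metformin, against 75.7, 68.5, 77.8 and 75.5 CPM in controls, and Acta2, the smooth muscle actin of myoepithelial cells, at 153, 168, 178 and 107 CPM with metformin, against 123, 115, 154 and 146 CPM in controls. Both overlapped and neither was called (log2 fold changes -0.10 and 0.17). Endothelial markers summed to between 140 and 215 CPM with metformin and to between 114 and 163 CPM in controls. Of 16 tested, Kdr (0.75) and Gpihbp1 (0.45) were called higher, and 0 were without NCD control 1, 2 or 3 or NCD metformin 2 or 3, 1 without NCD control 4, HFD control 1 or 3 or HFD metformin 2 or 3, and 6 without NCD metformin 4. B and plasma cell markers (145 to 503 CPM with metformin and 233 to 593 CPM in controls) and erythroid markers (164 to 433 CPM with metformin and 117 to 708 CPM in controls) overlapped. Ly6g, a defining neutrophil marker, and Dsg1a, a skin marker, were at 0 in all 8 libraries.

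The remaining lists held few calls, to be read against 4.01% of all genes called higher and 6.03% lower, and 2.93% and 3.31% without NCD control 3. Of 42 genes of coat proteins and the translocon 3 were higher (Sec13 at 0.51, Srp68 at 0.43 and Copg1 at 0.38), with 0 without NCD control 1 or 2 or NCD metformin 2 and 1 without NCD control 3 or NCD metformin 1 or 3. Of 33 proteasome subunits 2 were higher (Psmb3 at 0.65 and Psmc4 at 0.42), which is near the share over all genes, with 1 without any 1 of 12 libraries, NCD control 3 among them. Of 25 components of TGF-beta, Notch and WNT signalling 3 were lower (Tgfbr1 at -1.60, Skil at -1.40 and Smad4 at -0.34), with 0 without NCD control 3 or NCD metformin 2 and 1 without NCD control 2 or NCD metformin 3. Of 19 genes of hypoxia and HIF targets, Hif1a, which encodes a subunit of HIF itself (-0.70), Kdm3a (-0.86) and Ero1l (given above) were lower. Higd1a (0.62) was higher. Leaving out NCD control 1 or NCD metformin 2 or 3 gave 1 lower. No gene was higher without any 1 of the NCD libraries other than NCD control 3. With the trend on coding length and GC content removed 1 was lower and 0 higher. Calcium and zinc transport gave 1 higher call each, Atp2c2 (0.40) and Slc39a11 (0.39), and pericyte markers 1, Kcnj8 (0.90), none of which was called without NCD control 1, 2, 3 or 4.

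In other lists edgeR called 0 genes. Among 34 cell cycle genes 2 had an unadjusted p under 0.05, and DESeq2 called 1 and limma voom 2. Among 31 genes of the extracellular matrix and 12 basal markers none had an unadjusted p under 0.05, and DESeq2 and limma voom called 0. Markers of T cells, B and plasma cells, neutrophils, mast cells, skin, Schwann cells and erythroid cells, with 2 to 7 tested genes each, gave 0 calls, with 0 to 2 genes per list at an unadjusted p under 0.05, 0 to 1 by DESeq2 and 0 to 1 by limma voom.

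The direction of change followed coding length. The median coding length was 1077 bases for genes called higher, 2271 bases for genes called lower and 1369 bases for all genes, and the median GC content of the coding sequence was 54.4, 49.4 and 53%. In the quintile of shortest genes (138 to 726 bases) 5.36% were called higher and 1.72% lower, and in the quintile of longest genes (2454 to 79527 bases) 1.28% were higher and 13.8% lower. The median level of the longest quintile relative to the shortest, on a log2 scale and centred over the libraries, was -0.14, -0.23, -0.17 and -0.36 in NCD metformin 1 to 4, against 0.09, 0.05, 0.05 and 0.17 in NCD control 1 to 4. The NCD groups did not overlap. The HFD groups did, at 0.09, -0.03, -0.22 and 0.02 in HFD metformin 1 to 4, against 0.00, -0.02, 0.18 and 0.51 in HFD control 1 to 4. With the trend on length and GC content removed within libraries 1063 genes were called, and 780 of them were among the 1255. Of the p53 targets 17 were then called lower, and the medians of the respiratory lists were 0.60 for the mitochondrial genome, 0.27 for complex I and 0.29 for complexes II to V. Lower calls fell from 4 to 0 in the prolactin and STAT5 list and from 7 to 3 in the mTORC1 list. Higher calls rose from 4 to 9 among aminoacyl-tRNA synthetases. All genes shifted the same way. Their lower calls fell from 754 to 428, their higher calls rose from 501 to 635 and their median log2 fold change went from -0.003 to 0.050. The part of coding length in the single calls was not tested further.

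**Figure D5:**
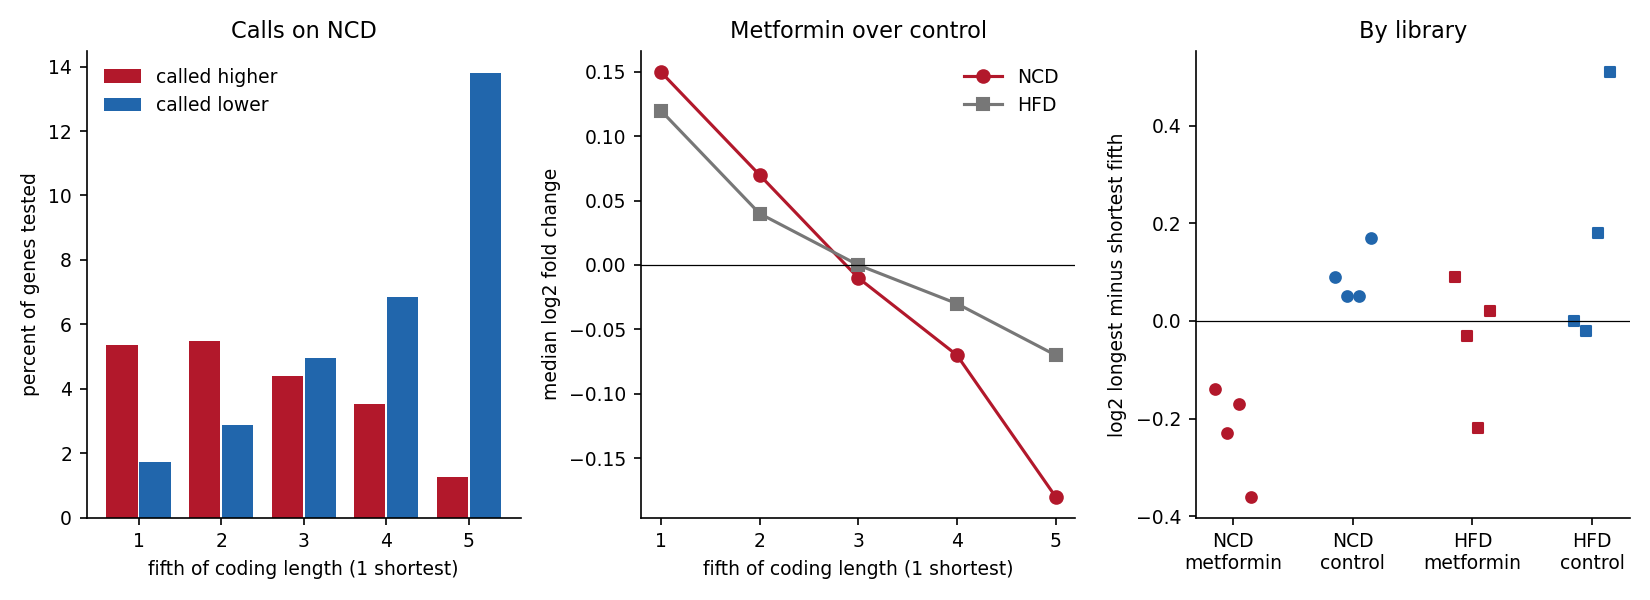
Left, percent of tested genes called higher (red) or lower (blue) with metformin on NCD in each quintile of coding length. Middle, median log2 fold change of metformin over control per quintile on NCD (red) and HFD (grey). Right, log2 level of the longest minus the shortest quintile in each library, where the 4 NCD metformin libraries lie between -0.36 and -0.14 and the 4 NCD control libraries between 0.05 and 0.17. The HFD metformin libraries lie between -0.22 and 0.09 and the HFD control libraries between -0.02 and 0.51.

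On HFD the same contrast gave far fewer calls. With 4 HFD metformin against 4 HFD control libraries, none of them shared with the comparison on NCD, edgeR called 21 of 12506 genes (0.168%), 16 higher (0.128%) and 5 lower (0.0400%). At an unadjusted p under 0.05 there were 1599. Of the 21, 16 were called on NCD in the same direction. HFD control 4 held 8649316 counts over genes and HFD metformin 1 held 14508606. The other HFD libraries held 24695419 to 39075290. The part of depth in the lower number of calls on HFD was not tested. The test of the difference between the effects on NCD and on HFD called 0 genes (0.00%), with 1243 at an unadjusted p under 0.05, the lowest adjusted p at 0.18 (Mgea5), 22 calls by DESeq2 and 0 by limma voom.

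For most genes called on NCD the sign was the same on HFD. Of the 501 genes called higher on NCD 446 were positive on HFD (89.0%), with a median log2 fold change of 0.52 on NCD and 0.23 on HFD. Of the 754 called lower 587 were negative on HFD (77.9%), with medians of -0.78 on NCD and -0.16 on HFD. Among genes not called on NCD the sign was the same on HFD for 63.4% of positive and 62.5% of negative genes. The 15 largest rises were all positive on HFD (medians 1.30 on NCD and 1.02 on HFD) and 4 of them were called there. Of the 15 largest falls 10 were negative on HFD (medians -2.55 on NCD and -0.17 on HFD) and none was called there, and 12 had an unadjusted p under 0.05 for the difference but none an adjusted one. The genes had been chosen for a large change on NCD, so the larger median on NCD is a description.

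Single genes and lists differed in how close their values on HFD came to those on NCD. On HFD the log2 fold change was 1.70 for Prss53, 1.60 for Pycard, 1.34 for Ptgr1 and 1.08 for Endog, all called. It was -0.69 for Ccng1, which was called, -1.03 for Cdkn1a, -0.17 for Eda2r, -0.03 for Trp53inp1 and -0.37 for Dusp1, none of them called. The difference for Eda2r had an unadjusted p of 2.88e-05 and an adjusted p of 0.18 (edgeR). Over the 34 p53 targets the median was -0.85 on NCD and -0.15 on HFD, with 1 called lower on HFD. The share of mitochondrial genome transcripts was higher with metformin on HFD too. It was 2.8 ± 0.188% in HFD metformin and 2.18 ± 0.18% in HFD control libraries (SD, n = 4 each), without overlap. Respiratory lists had similar medians on both diets. On NCD and HFD these were 0.49 and 0.40 for the mitochondrial genome, 0.37 and 0.31 for complex I and 0.40 and 0.35 for complexes II to V. Cholesterol synthesis genes had a median of 0.43 on NCD and -0.09 on HFD, and Msmo1 a value of -0.01 on HFD.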

How the data were processed

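Gene expression was measured by RNA-seq of inguinal mammary gland in 16 libraries, from a strand-specific kit per the labels' protocols. The deposited tables hold estimated counts and TPM for each of 58204 transcripts, which the submitters' processing notes credit to Salmon 1.3.0 on GRCm38.p6, and the same notes name DESeq2 1.28.1. The authors' TPM is relative to a fixed total per library and keeps no depth, and it was used only in an alternative. Transcript lengths in the tables were within 6 bases of the coding length for all 56855 transcripts checked, so UTR reads were not counted where they did not reach the coding sequence.

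Estimated counts were summed to genes with the GENCODE M21 annotation (752 transcripts without a match held 0.165 to 0.218% of counts), rounded to whole numbers and filtered with filterByExpr. The 12506 remaining genes were fitted with edgeR 4.0.16 (R 4.3.3; TMM, quasi-likelihood, 1 mean per group over all 16 libraries, 12 residual degrees of freedom). A call is a Benjamini-Hochberg adjusted p under 0.05 over all genes tested. The SE is the log2 fold change divided by the root of its F statistic. Alternatives were DESeq2 1.42.0, limma 3.58.1 (voom), other filters and scalings, other sets of libraries, and each library left out. The main edgeR fit was tested on data simulated from its own estimates of spread, with known fold changes added. All 120 pairs of libraries differed by more than sampling noise.

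The members and lists were chosen with earlier results of these data known. The 15 largest rises, the 15 largest falls and the 12 lowest p-values were taken from a pool of 586 genes. These were called with and without NCD control 3, at a mean of at least 1 CPM, and had no clone name. Their groups also had to be without overlap in CPM. Named too are up to 4 genes per list, 6 of the highest level in each direction, 6 tissue controls and the genes within 250 kb of Prss53. Promoter sequences are from RefSeq. The floor of 3 counts covers counting error only. Some genes that this rule names are not reported here.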

Additional observations from a re-analysis of the deposited data

Results flagged for a closer look

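Within a group of 4 libraries, 1 library was set apart where its gap to the nearest of the others took more of the group's range than the 95% critical value of Dixon's test allows, which chance gives in about 1 of 20 groups. It occurred in 12 of 146 groups examined. In NCD metformin 2 this was so for Kcnk5 (198 CPM), Fkbp4 (207 CPM), Rnase1 (3.11 CPM), Ckm (2.74 CPM), Acta1 (2.64 CPM) and Ryr1 (0.969 CPM). In NCD metformin 3 it was so for Psrc1 (1.48 CPM). In NCD control 3 it was so for the muscle genes Ckm (448 CPM), Acta1 (414 CPM) and Ryr1 (99.7 CPM) and for Ly6a (11.9 CPM), and in NCD control 1 for Eno1 (172 CPM, the lowest).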

How the results depend on the processing

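No paired analysis was possible because the labels give no replicate numbers that the groups share. Of the 1255 calls on NCD, the count was 2137 with limma voom, 728 with only the NCD libraries and without NCD control 3, 613 in counts rebuilt from TPM, and 1 within titles 1 to 10 and 1 within titles 14 to 26, where 1 control library remained and was assumed to vary like the other groups. Genes called higher (501) numbered 248 with library size scaling, 765 with DESeq2, 976 with voom, 313 from TPM and 1 and 0 within the title ranges. Genes called lower (754) numbered 1161 with voom, 302 with only the NCD libraries and without NCD control 3, 300 from TPM, 428 with the length and GC trend removed and 0 and 1 within the title ranges. The share of calls that were higher was 39.9%, and 58.5, 51.1 and 59.7% in the NCD libraries without NCD control 3, from TPM and without the length trend. Leaving out 1 library at a time gave 180 to 1461 calls, 79 to 591 higher and 101 to 870 lower. On HFD (21 calls) the count was 7 with library size scaling, 160 with DESeq2, 4 from TPM, 8 within titles 1 to 10 and 0 within titles 14 to 26, and 3 to 44 without 1 library. The difference between diets (0 calls) gave 22 with DESeq2, 3 within titles 1 to 10 and 0 to 1 without 1 library. Directions reversed from TPM for Eif2b1 (-0.09) and Agpat3 (0.18), within titles 14 to 26 for Aqp3 (0.04), Ckm (1.33), Csn2 (-0.18) and Acta2 (-0.04), and without NCD control 3 for Ryr1 (0.05, and -7.84 to 0.05 without 1 library). The causes were not tested. At the depth of these libraries 3 counts correspond to 0.0766 to 0.118 CPM, and levels below this cannot be told from 0.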
